A study of Mus musculus with 2 samples.

Results

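The genes described here are 47 genes of ribosome biogenesis and RNA polymerase I transcription, chosen by name for their function. The choice was made with earlier results of these data known. They are 47 of 43346 Ensembl genes quantified by total RNA-seq, and each symbol matched 1 gene. The libraries were 2 biological replicates of 1 group, labelled as megakaryocyte progenitors (CFU-Meg) from bone marrow of male C57BL/6J mice aged 5 to 6 weeks, with no treatment or altered allele named. The input was 1 ng of RNA for both. The biosample labels differ but name a common donor identifier, so differences between the replicates may not represent differences between animals, and the gate used for sorting was not given in the labels. With 1 group there was no contrast between conditions.

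Ribosome biogenesis starts in the nucleolus, where RNA polymerase I transcribes the rRNA genes into a long precursor. Small nucleolar ribonucleoproteins modify the precursor, the small subunit (SSU) processome folds and cleaves its 5′ part, and other factors assemble the 60S subunit before both subunits mature and leave for the cytoplasm. In blood progenitors this output sets the capacity for protein synthesis during growth and division, and inherited defects in it cause marrow failure syndromes.

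The label was set against lineage markers first. The 12 megakaryocyte markers summed to 11.8 TPM (relative transcript abundance corrected for transcript length) in replicate 1 and 7.26 TPM in replicate 2, 2 of them reached 1 TPM in both, and Gp6 and Tubb1 were listed at 0 in both. The 8 granulocyte markers summed to 15606 and 16123 TPM, the 5 monocyte markers to 2918 and 3328 TPM, and the 8 erythroid markers to 554 and 290 TPM. Within the granulocyte sum, genes differed between the libraries in both directions. Mpo had 6306 and 5478 TPM and Elane 3661 and 2759 TPM, while S100a8 had 1313 and 2377 TPM and S100a9 1138 and 2030 TPM. Ly6c2 alone gave 2767 and 3120 TPM of the monocyte sum and Car1 alone gave 511.9 and 242.3 TPM of the erythroid sum, and 1 of the 8 erythroid markers reached 10 TPM in both libraries. The 5 B cell markers (0.16 and 0.37 TPM) and the 5 T and NK cell markers (1.81 and 0.90 TPM) were near 0. The values therefore go against the label, and the samples are called the CFU-Meg-labelled libraries below. In such bulk samples, fewer cells of a type and less RNA per cell cannot be told apart.

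No open search for shared promoter sequences was run. The canonical E-box CACGTG was a motif chosen for the search, and it is shown first. It is the site known to be bound by the transcription factor MYC with its partner MAX, and ribosome biogenesis genes are known targets of MYC. Of the 47 genes, 41 had a RefSeq promoter (GRCm38.p6), taken as 250 bases before to 50 bases after the annotated start, and 11 of these 41 held the motif, which reads the same on both strands. Genes with several annotated starts had several windows, 49 in all, and counted once. Each motif is printed 5′ to 3′ on the gene's strand with up to 10 bases on either side, shorter where the promoter window ended, and the capitals mark the E-box.
Imp4: ggtcttagacCACGTGacatcccaaa
Nop2: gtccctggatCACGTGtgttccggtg
Utp4: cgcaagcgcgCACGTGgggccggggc
Ltv1: cctgtggaccCACGTGtggagctgcc
Utp20: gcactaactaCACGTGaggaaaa
Pes1: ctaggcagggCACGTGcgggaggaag
Mybbp1a: cttctgagccCACGTGtttg
Tsr1: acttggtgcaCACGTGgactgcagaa
Utp18: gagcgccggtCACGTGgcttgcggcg
Rrn3 distal: gcgccaaggtCACGTGcacacgcctc
Rrn3 proximal: acgctctgctCACGTGggccgcgtcc
Wdr43: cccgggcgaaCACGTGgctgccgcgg

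These windows lie at chr1:34439698-34439723 on the plus strand for Imp4, chr6:125131813-125131838 on the plus strand for Nop2, chr8:106893645-106893670 on the plus strand for Utp4 and chr10:13193094-13193119 on the minus strand for Ltv1. The next lie at chr10:88826765-88826787 on the minus strand for Utp20, chr11:3963967-3963992 on the plus strand for Pes1, chr11:72441357-72441376 on the plus strand for Mybbp1a and chr11:74898094-74898119 on the plus strand for Tsr1. The last lie at chr11:93885771-93885796 on the minus strand for Utp18, chr16:13780474-13780499 on the plus strand for Rrn3 distal, chr16:13780641-13780666 on the plus strand for Rrn3 proximal and chr17:71616222-71616247 on the plus strand for Wdr43. The motif's centre lay after the annotated start, in the first transcribed bases, for 7 of the 12 motifs, from 5 bases in Pes1 to 43 bases in Mybbp1a. In all promoters this held for 392 of 2589 motifs, and for 108 of 671 in protein-coding genes with 10 TPM or more in both libraries.

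Rrn3, which encodes the factor that brings RNA polymerase I to the rRNA promoter, was the 1 gene of the set with 2 E-boxes. Its 250 bases upstream of the start (chr16:13780449-13780698, plus strand, GRCm38.p6) are shown because they hold both, centred 212 and 45 bases before the start.
Rrn3: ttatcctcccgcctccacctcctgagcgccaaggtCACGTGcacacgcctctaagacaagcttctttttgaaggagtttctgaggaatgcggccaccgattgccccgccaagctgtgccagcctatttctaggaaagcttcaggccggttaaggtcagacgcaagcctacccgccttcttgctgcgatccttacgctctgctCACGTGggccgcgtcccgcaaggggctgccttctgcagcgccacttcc

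The E-box was found in 26.8% of these genes with a promoter (11 of 41). It was found in 8.09% of all 27025 genes in the promoter table, in 9.24% of protein-coding genes, and in 13.0% of the 4174 protein-coding genes with 10 TPM or more in both libraries. Other genes of the same pathway held it in 16.7% of cases (18 of 108), cytoplasmic ribosomal protein genes in 9.84% (6 of 61) and mitochondrial ribosomal protein genes in 7.35% (5 of 68). The broader E-box CANNTG, searched on both strands and including CACGTG, was in 61.0% of these genes and in 75.0% of all genes with a promoter, and in 64.5% of protein-coding genes with 10 TPM or more. By role, CACGTG was in 5 of 13 SSU processome promoters, 2 of 4 late 40S promoters, 2 of 9 60S promoters, 1 of 6 promoters of chaperones and organisers, 1 of 7 RNA polymerase I promoters and 0 of 2 box C/D core promoters. These are matches of letters, not measured binding sites, and the shares were compared as a description with no test.

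The E-boxes lay close to the start. Of the 12 motifs, 9 (75.0%) were centred within 50 bases of it, against 41.1% of 2589 motifs in all promoters and 44.7% of 671 motifs in genes with 10 TPM or more. The 11 genes with the motif had a median of 25.3 TPM and ranged from 12.4 to 107.7 TPM, and the 30 genes without it had a median of 27.4 TPM and ranged from 4.60 to 314.5 TPM. The levels of genes with and without the motif overlapped. Myc itself stood at 155.2 TPM in replicate 1 and 135.4 TPM in replicate 2, and Max at 39.3 and 41.3 TPM. The related Mycn (1.01 and 0.26 TPM) and Mycl (0.05 and 0.23 TPM) were near or under 1 TPM.

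**Figure D1:**
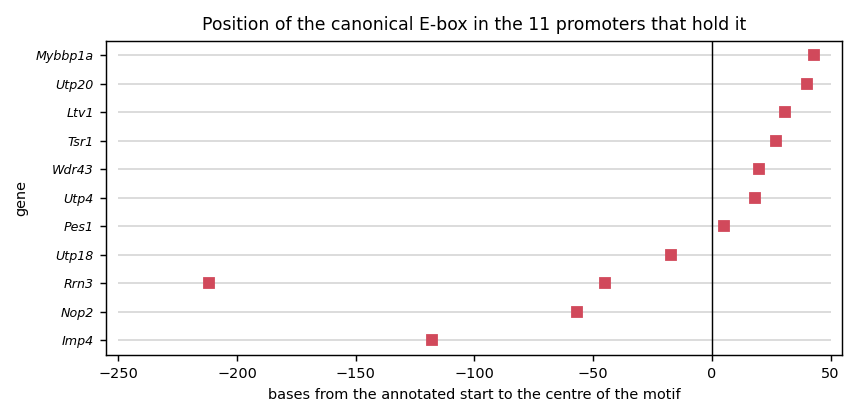
Each square is the centre of a CACGTG motif, placed by its distance in bases from the annotated start of transcription (vertical line), for the 11 genes that hold it; grey lines span the 300 bases searched. 9 of the 12 squares sit within 50 bases of the start, and Rrn3 has 2.

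All 47 genes were detected at 1 TPM or more in both libraries. Of all 21474 protein-coding genes, 46.2% reached that level. The median of the 47 genes was 25.4 ± 1.2 TPM (SD over 2 libraries), with 26.98 TPM in replicate 1 and 25.34 TPM in replicate 2. A level of 10 TPM in both libraries was reached by 42 of them (89.4%), against 24.1% of protein-coding genes, and 100 TPM by 4 (8.51%, against 2.58%). Those 4 were Npm1, Ncl, Nop56 and Mybbp1a. In protein-coding transcript models alone, Ncl (48.2 and 42.8 TPM) and Mybbp1a (42.9 and 44.7 TPM) did not reach 100 TPM. Ranked by mean TPM among protein-coding genes, 1 lay in the first 100, 9 in the first 1000 and 29 in the first 3000, and the median rank was 2643.

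Their levels ran over a 281-fold range, from Rrp12 at 4.33 TPM to Npm1 at 1218 TPM. Npm1 alone made up 37.8% of their summed TPM in replicate 1 and 39.0% in replicate 2. With Ncl the shares were 48.0% and 48.6%, and the 5 highest genes held 60.9% and 60.6%. In reads, the 47 genes together took 353050 of 43284419 protein-coding expected counts in replicate 1, or 0.816% (95% exact Clopper-Pearson interval 0.813 to 0.818). In replicate 2 they took 315150 of 40302904, or 0.782% (0.779 to 0.785). The share was lower in replicate 2, and these intervals cover counting error only. Each gene rested on at least 514 reads, with a median of 3401 in replicate 1 and 3176 in replicate 2.

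**Figure D2:**
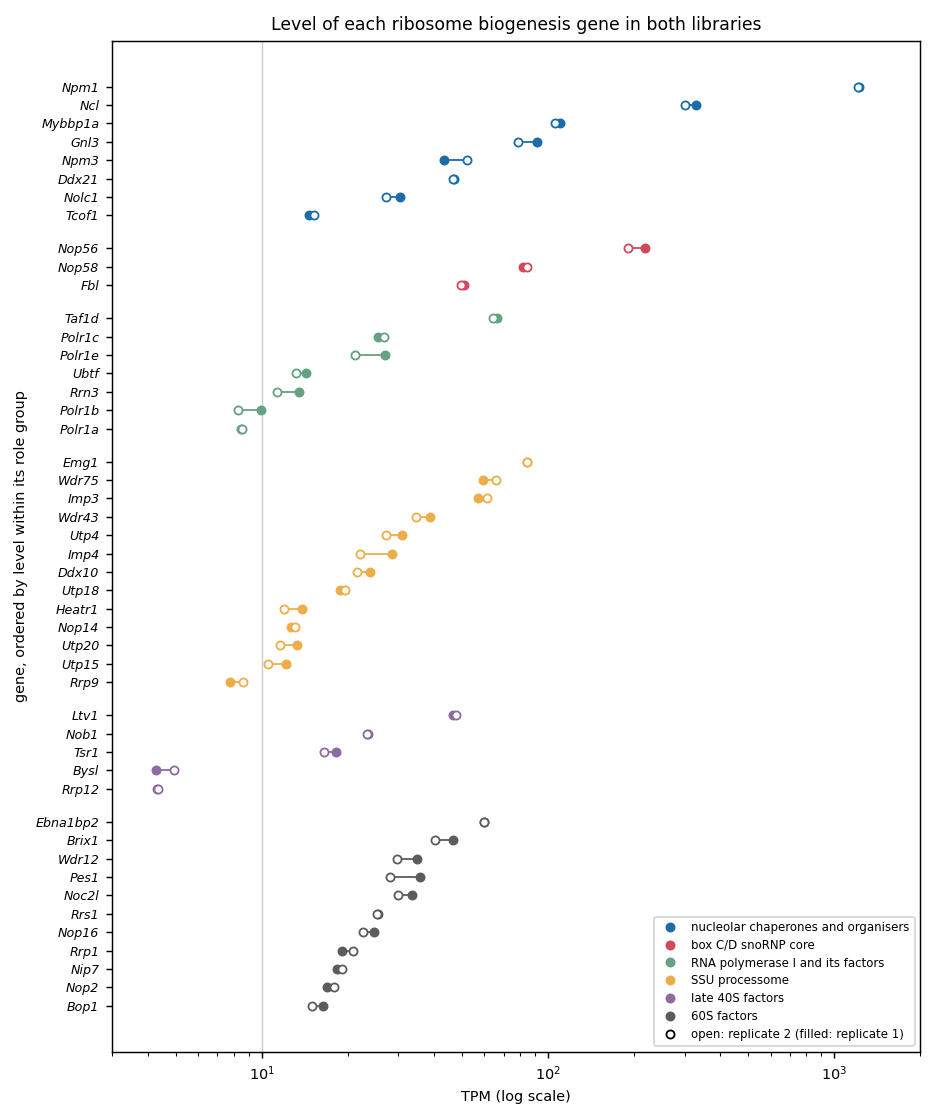
TPM on a log axis of each gene in replicate 1 (filled circles) and replicate 2 (open circles), grouped and coloured by role and ordered by mean level within the role; a line joins the 2 libraries and the grey line marks 10 TPM. The range between genes, 281-fold, is far wider than the distance between libraries, and 5 genes sit under 10 TPM in both.

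Nucleolar chaperones and organisers held most of the RNA of the set, 58.4% of its summed TPM in replicate 1 and 59.1% in replicate 2. Their median over 8 genes was 66.4 ± 3.0 TPM. Npm1 (nucleophosmin, ENSMUSG00000057113.9, chromosome 11), a nucleolar histone chaperone that shuttles pre-ribosomes, stood at 1223 TPM in replicate 1 and 1214 TPM in replicate 2. Ncl (nucleolin, ENSMUSG00000026234.8, chromosome 1), which binds the rRNA precursor, stood at 327.7 and 301.3 TPM. Npm1 and Ncl ranked 64 and 177 among protein-coding genes, and were the 2 highest of the role in both libraries. The place of Ncl rests on models annotated as retained introns: its coding models alone had 48.2 and 42.8 TPM, below Gnl3 in both libraries.

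Mybbp1a, a nucleolar protein that binds MYB, followed at 109.9 and 105.6 TPM, of which coding models held 42.9 and 44.7 TPM. Gnl3 (nucleostemin), a nucleolar GTPase of proliferating cells, stood at 91.8 and 78.3 TPM. Npm3, a relative of Npm1, had 43.3 TPM in replicate 1 and 52.3 TPM in replicate 2, and Ddx21, an RNA helicase that links RNA polymerase I to rRNA processing, had 47.1 and 46.6 TPM. These 2 genes changed order between the libraries. Nolc1, the coiled-body and nucleolar phosphoprotein, had 30.5 and 27.2 TPM. The lowest of the role was Tcof1 (treacle), which recruits RNA polymerase I factors and whose human counterpart is mutated in Treacher Collins syndrome, at 14.6 and 15.3 TPM.

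The box C/D core proteins bind the guide RNAs that direct 2′-O-methylation of rRNA. Nop56 was their highest at 217.7 TPM in replicate 1 and 191.1 TPM in replicate 2. Its partner Nop58 had 81.7 and 84.8 TPM, and Fbl (fibrillarin), the methyltransferase, was the lowest at 50.9 and 49.6 TPM. The order of the 3 was the same in both libraries and their values did not overlap. Models annotated as retained introns held 36.9% and 42.7% of the TPM of Nop56. In coding models alone Nop56 had 134.2 and 105.1 TPM and Nop58 had 65.3 and 68.1 TPM, which kept the order. The 12-exon model Nop56-202 by itself had 40.2 and 26.6 TPM, below Fbl in both libraries.

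RNA polymerase I subunits and factors had the lowest role median, 13.8 ± 0.7 TPM over 7 genes. With coding models alone it was 13.2 TPM, and that of the late 40S factors was lower, at 8.87 TPM. The large catalytic subunits stood below the other members: Polr1a at 8.50 and 8.53 TPM and Polr1b at 9.94 and 8.27 TPM. The subunits Polr1c (25.4 and 26.7 TPM), which RNA polymerase III also uses, and Polr1e (26.98 and 21.18 TPM) were higher in each library. Of the factors, Ubtf, which binds along active rRNA genes, had 14.3 and 13.2 TPM, and Rrn3 had 13.5 and 11.3 TPM. Taf1d, a subunit of the promoter selectivity factor SL1, was the highest at 66.5 and 64.2 TPM, more than any other member of the role in either library.

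The SSU processome genes had a median of 22.7 ± 1.7 TPM over 13 genes. Emg1, a methyltransferase of the 18S rRNA, was the highest at 84.5 TPM in replicate 1 and 84.3 TPM in replicate 2, of which coding models held 58.7 and 58.9 TPM. Wdr75 (59.3 and 65.6 TPM) and Imp3 (56.8 and 61.2 TPM) followed, Wdr75 being a subunit of the complex that first binds the precursor and Imp3 a protein that binds the U3 snoRNA. In coding models alone Wdr75 had 30.3 and 38.1 TPM, and Emg1 and Imp3, which has 1 model, changed order between the libraries. Wdr43, Utp4 and Utp15, subunits of that same first complex, were spread out, at 38.7 and 34.5 TPM, 30.9 and 27.2 TPM, and 12.2 and 10.5 TPM.

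Imp4, the partner of Imp3, had 28.5 and 22.1 TPM (12.2 and 9.94 TPM in coding models), and Ddx10, a helicase, had 23.9 and 21.5 TPM. Utp18 stood at 18.8 and 19.5 TPM, Nop14 at 12.6 and 13.1 TPM and the very long scaffold proteins Heatr1 and Utp20 at 13.9 and 11.9 TPM and 13.3 and 11.6 TPM. Rrp9, a protein of the U3 particle, was the lowest at 7.73 and 8.58 TPM. It also had the fewest reads of the 47 genes, 514 and 551.

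Late 40S factors had a median of 17.4 ± 1.1 TPM over 5 genes and held the 2 lowest genes of the set. Rrp12, a factor of 40S maturation and export, had 4.30 TPM in replicate 1 and 4.36 TPM in replicate 2. Bysl (bystin) had 4.27 and 4.93 TPM, so the 2 genes changed order between the libraries. Ltv1, which holds the 40S precursor in its immature form until release, was the highest at 46.7 and 47.9 TPM. Nob1, the endonuclease that makes the final 3′ end of 18S rRNA, had 23.6 and 23.4 TPM (8.94 and 8.80 TPM in coding models), and Tsr1, a GTPase-like factor, had 18.2 and 16.6 TPM.

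The 60S factors were the most even of the larger role groups, spanning 3.81-fold over 11 genes with a median of 25.4 ± 0.1 TPM. Ebna1bp2, a nucleolar assembly factor, was the highest at 59.9 TPM in replicate 1 and 59.6 TPM in replicate 2. Its coding models alone had 18.7 and 16.6 TPM, below those of Noc2l, Wdr12, Rrs1, Brix1, Nop16 and Rrp1 in both libraries. Pes1, Bop1 and Wdr12 encode the 3 proteins of 1 complex (PeBoW), and their levels were not equal. Pes1 had 35.8 and 28.0 TPM, Wdr12 had 34.9 and 29.7 TPM, and Bop1, the lowest of the role, had 16.4 and 15.0 TPM. Pes1 and Wdr12 changed order between the libraries, while Bop1 was below both in each. With coding models alone Pes1 had 16.1 and 13.7 TPM, below Bop1 in both libraries, and Wdr12 had 30.2 and 29.2 TPM.

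Of the other 60S factors, Brix1 had 46.4 and 40.3 TPM (21.0 and 22.3 TPM in coding models), Noc2l had 33.5 and 30.0 TPM and Rrs1, which brings the 5S particle into the subunit, had 25.5 and 25.3 TPM. Nop16, Rrp1, Nip7 and Nop2, a methyltransferase of the 28S rRNA, lay between 16.9 and 24.6 TPM in both libraries.

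The rest of the pathway was read from a list of 140 further symbols, of which 130 matched a gene in the tables. Most of the other 10 are alternative symbols of genes already matched. All 130 reached 1 TPM in both libraries, 94 reached 10 TPM, and their median was 20.6 ± 0.1 TPM. The medians in the single libraries, 20.29 and 20.49 TPM, were both below this median of the gene means. The highest were Rmrp, the RNA of the RNase MRP enzyme that cuts the rRNA precursor (454.3 and 424.3 TPM), Rsl1d1 (122.0 and 125.0 TPM) and Snu13, the protein that starts assembly of box C/D particles (114.4 and 123.9 TPM). Rmrp is a short RNA, and division by its small effective length makes its TPM less certain than that of the others. The lowest were Rbm19 (1.21 and 2.33 TPM), Taf1c, an SL1 subunit (2.27 and 2.54 TPM), and Pwp2 (2.97 and 2.31 TPM).

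By sub-group, medians were 64.0 TPM for the 4 box H/ACA core genes and 30.9 TPM for 15 genes of nucleolar stress and rRNA decay. They were 27.03 TPM for 13 further RNA polymerase I and SL1 genes and 24.5 TPM for 10 genes of box C/D partners and particle assembly. The 48 further 60S factors had 20.3 TPM, the 33 further SSU processome genes 18.1 TPM and the 7 further 40S factors 14.6 TPM. Of the 13 further RNA polymerase I and SL1 genes, 8 reached 10 TPM in both libraries. The 13 include Polr2e, Polr2f, Polr2h, Polr2k and Polr2l, subunits shared with RNA polymerase II, and their median is the value of Polr2h. Of the rest, Polr1d, Znrd1 and Twistnb had means of 70.5, 44.0 and 28.2 TPM. Taf1b, Taf1a, Ttf1, Cd3eap and Taf1c had means from 12.1 down to 2.4 TPM. The products that these factors assemble were much higher: the 81 cytoplasmic ribosomal protein genes had a median of 963 ± 25 TPM. The 77 mitochondrial ribosomal protein genes had a median of 28.6 ± 0.3 TPM, near that of the 47 genes. Their medians in the single libraries were 29.6 and 29.2 TPM, both above the median of the gene means.

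The genes were then compared between the libraries by an exact two-sided binomial test on reads, adjusted over 14304 genes by the Benjamini-Hochberg method. This test compares 2 libraries, not conditions. None of the 47 genes was called at an adjusted p under 0.05 with a log2 ratio of at least 1 in size, against a background of 7.66% of genes tested. Among protein-coding genes with a mean of 10 TPM or more, 0.295% had a log2 ratio of that size. With no minimum ratio, 33 of the 47 genes (70.2%) passed, against a background of 59.0%. Of these, 18 were higher in replicate 1, against a background of 29.7% of genes tested in that direction, and 15 were higher in replicate 2, against 29.4%.

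The ratios themselves were small. The median log2 ratio of replicate 2 over replicate 1 was 0.01, the median size was 0.12, and the range was −0.34 to 0.32, which is at most a 1.26-fold difference. Over all genes tested the median size was 0.21. Over the 5416 protein-coding genes with a mean of 10 TPM or more it was 0.12, close to that of the 47 genes. Over the other pathway genes it was also 0.12, and 0 of 130 were called, with 74 passing when no minimum ratio was set. The cytoplasmic ribosomal protein genes had a median log2 ratio of 0.09, with 63 of 78 tested higher in replicate 2. The background in that direction was 7156 of 14304 genes tested, and 3052 of the 5416 protein-coding genes with 10 TPM or more. With 1 library on each side this is a description only.

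Polr1e had the largest ratio, falling from 1815 reads in replicate 1 to 1296 in replicate 2 (log2 ratio −0.34, adjusted exact binomial p = 8.00e-10). Npm3 was next, with 2017 and 2267 reads (log2 ratio 0.32, adjusted exact p = 5.01e-12). Imp4 had 5073 and 3808 reads (log2 ratio −0.26, adjusted exact p = 1.21e-16). Bysl (985 and 1056 reads) and Rrp9 (514 and 551 reads) both had a log2 ratio of 0.25. These are the 5 largest ratios of the set, and with 1 library on each side no replicate spread stands behind them. Rbm19, of the wider pathway, had 212 and 379 reads and a log2 ratio of 0.98, just under the limit for a call.

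**Figure D3:**
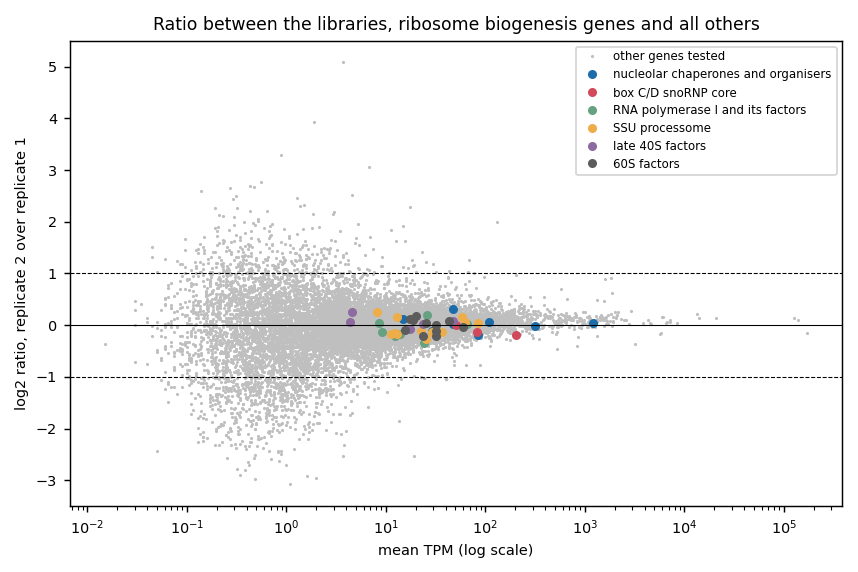
Log2 ratio of replicate 2 over replicate 1 against mean TPM (log axis), with the 47 genes coloured by role, the other genes tested in grey and dashed lines at ratios of 1 in size. The coloured points lie between −0.34 and 0.32, inside the dashed lines.

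TPM and reads did not always give the same direction. TPM was higher in replicate 1 for 31 of the 47 genes, and for 10 genes the TPM and the read ratio pointed opposite ways. By read ratio 23 were higher in replicate 1 and 24 in replicate 2. The TPM directions were not counted over all genes, so these counts are not read as a trait of the set. Brix1 had 46.4 TPM in replicate 1 and 40.3 TPM in replicate 2, with deposited credibility intervals that did not overlap, yet its log2 ratio of reads was 0.08 in favour of replicate 2. In the same gene, the 441-base model Brix1-202 took 51.5% of the TPM in replicate 1 and 42.2% in replicate 2. Such intervals did not overlap for 22 of the 47 genes (46.8%), against a background of 43.5% of genes tested.

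The transcript tables show how the level of each gene was divided among its annotated models. Of the 47 genes, 20 had 1 model and 27 had several, and 42 had the same leading model in both libraries. Protein-coding models took 79.3% of the summed TPM of the set in replicate 1 and 80.3% in replicate 2. With those models alone the median of the 47 genes was 20.9 TPM and 40 genes reached 10 TPM in both libraries.

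Coding models took less than 50% of the TPM in both libraries for 6 genes, Ncl, Ebna1bp2, Nob1, Mybbp1a, Imp4 and Pes1. That is 22.2% of the 27 genes with several models, against 14.0% of 3996 protein-coding genes with several models and 10 TPM or more in both libraries. Counting genes with 1 model too, it is 12.8% of the 47 genes against 10.9% of 5183, and the median coding share was 99.8% and 100% for the 47 genes against 96.4% and 97.0%. The leading model was not a protein-coding one in at least 1 library for 8 genes, these 6 with Brix1 and Polr1e.

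**Figure D4:**
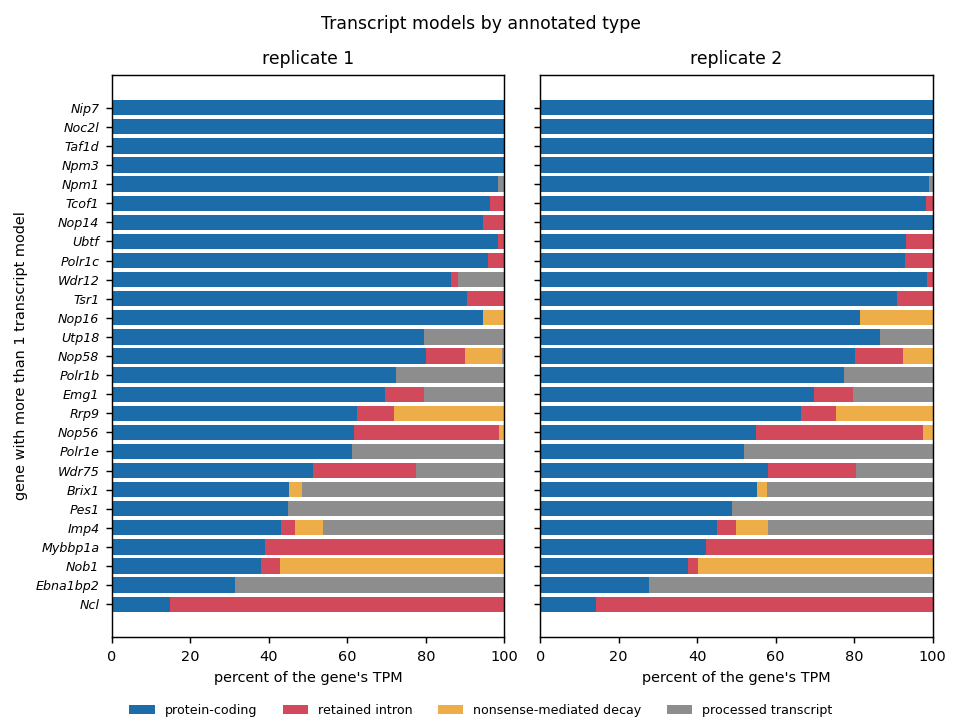
Percent of each gene's TPM assigned to models annotated as protein-coding, retained intron, nonsense-mediated decay or processed transcript, for the 27 genes with more than 1 model, in replicate 1 (left) and replicate 2 (right). Genes are ordered by their coding share; Ncl has the lowest, at 14.7% and 14.2%, and the libraries look alike for most genes.

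Ncl stood furthest from a coding assignment. Ncl-202, annotated as a retained intron, took 64.7% of its TPM in replicate 1 and 70.9% in replicate 2, and the shorter Ncl-205 of the same type took 17.5% and 11.1%. The coding model Ncl-201 took 13.8% and 13.6%. By reads rather than TPM, Ncl-201 held 35.7% and 33.7%, since this model is 8202 bases long and Ncl-202 is 3072. Of the 3072 bases of Ncl-202, which has 12 exons, 77.8% are also exon bases of the coding models and 682 bases are not. The tables do not give the reads over those 682 bases, so spliced and unspliced Ncl RNA cannot be told apart here.

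In other genes a short model took a large share of the TPM and a small share of the reads. Mybbp1a-204, a retained-intron model of 427 bases, took 54.7% of the TPM in replicate 1 and 54.8% in replicate 2, but 8.40% and 8.05% of the reads. Pes1-203, a processed transcript of 497 bases, took 55.1% and 51.1% of the TPM and 13.7% and 12.0% of the reads. Imp4-203, of 726 bases, took 46.3% and 42.0% of the TPM and 9.48% and 8.28% of the reads. For these genes most reads lay on the coding model, and the gene's TPM depends on how few reads of a short model are weighted.

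In Ebna1bp2 the 788-base processed transcript Ebna1bp2-202 took 65.5% and 67.6% of the TPM and 32.0% and 35.1% of the reads. In Nob1 the leading model, Nob1-207, is annotated as a target of nonsense-mediated decay, the pathway that removes mRNAs with early stops. It took 57.3% and 59.9% of the TPM and 49.2% and 51.9% of the reads, and 99.8% of its 1255 bases are shared with coding exons. Reads within shared bases cannot be placed on 1 model, so these divisions are estimates.

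Among the genes led by coding models, Npm1 was divided between Npm1-201 (42.5% and 44.5%), Npm1-204 (34.6% and 35.4%) and Npm1-202 (19.5% and 18.1%), alike in both libraries. Nop56 was led by Nop56-201, a coding model of 946 bases and 5 exons, with 39.4% and 33.8%, ahead of the 12-exon Nop56-202 with 18.5% and 13.9%. Nop58-201 took 48.9% and 42.8% of its gene, and Wdr75-209, a coding model of 412 bases, took 42.2% and 50.2%. By reads Wdr75-209 held 10.5% and 13.8%, and all coding models of Wdr75 held 33.3% and 36.0%.

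In 5 genes the leading model changed between the libraries: Brix1, Imp4, Polr1e, Tcof1 and Ubtf. Ubtf-213 took 50.7% in replicate 1 and 41.6% in replicate 2, and Ubtf-202 took 25.0% and 47.6%. Their deposited credibility intervals overlapped for Ubtf-213 (5.22 to 7.27 and 3.78 to 5.71 TPM) and did not for Ubtf-202 (1.38 to 3.72 and 4.29 to 6.30 TPM). Tcof1-202 took 53.3% and 48.5%, and Tcof1-204 took 42.6% and 49.5%. In Polr1e the coding Polr1e-202 took 48.3% and 37.6%, and the processed transcript Polr1e-207 took 38.9% and 43.1%.

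Several of these genes host snoRNA genes in their span. There were 28 such snoRNA genes of 68 to 137 bases in 7 hosts: 8 in Taf1d, 5 in Nop56, 4 in Nop58, 3 each in Gnl3, Ncl and Wdr43, and 2 in Tsr1. Together they took 109 reads in replicate 1 and 74.9 in replicate 2, and 19 of the 28 were listed at 0 in both. For 18 of them the deposited effective length was 0, so the tables give them no TPM whatever their abundance. By mean reads the highest was Gm23455, in Taf1d, with 8 and 45 reads, followed by Gm22620 (39 and 0 reads), Gm22579 (22 and 13.5 reads), Gm24451 in Nop56 (15 and 11 reads) and Gm24455 (16 and 1 reads). All 28 are shorter than the lower end of the size ranges given for the libraries (149 and 157), and no level is read from these values.

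Sequence copies and overlapping genes bear on some values. At 90% identity over 300 bases or more, 14 of the 47 genes had 30 annotated pseudogene copies. The 8 copies of Npm1, 6 of which had a row, summed to 22.8 and 31.2 TPM, or 1.86% and 2.57% of the TPM of Npm1, and the highest was listed at 18.9 and 27.3 TPM. The copies of Nop56 summed to 0.71% and 0.87% of it, and the 1 copy of Npm3 was at 0.50 and 1.14 TPM, or 1.15% and 2.18% of Npm3. Reads shared between a gene and its copies could have been divided either way.

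Exons on the opposite strand overlapped 17 of the 47 genes, and whether the counting used strand was not stated in the labels or headers. The largest overlaps were of Tsr1 with Srr (32.3% of the exon bases of Tsr1; Srr at 6.19 and 5.20 TPM) and of Noc2l with Samd11 (20.9%; Samd11 at 0.01 and 0.00 TPM). Bysl, one of the lowest of the set, shared 9.37% of its exon bases with Ccnd3, a D-type cyclin at 39.4 and 41.5 TPM, so part of its few reads could belong to that gene. The part of overlapping genes in these levels was not tested.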

How the data were processed

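Both libraries are total RNA-seq of the CFU-Meg-labelled group. Per the deposited file lists, reads were placed on mm10 and quantified against GENCODE M4, each library on its own. Neither labels nor headers name the aligner, the quantifier, the read layout or the use of strand. The deposited expected counts, named so per the file headers, are raw read estimates in which shared reads are divided. The deposited TPM and FPKM values are scaled per effective length and library, the deposited score columns are bounds of the credibility interval of TPM, and the deposited percent is the part of a gene's TPM on each transcript. Expected counts totalled 82746658 and 75652762.

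Symbols, biotypes and positions came from GENCODE M21 (GRCm38, which is mm10) for 98.0% of 43346 Ensembl rows; 174 of 193 transcripts of the 47 genes had the same length there. Lengths of the other transcripts differed, so their exon structure is that of M21. Promoters came from RefSeq (GRCm38.p6); Tcof1, Rrp12, Bop1, Rrs1, Fbl and Npm1 had no entry. Copies were searched with BLAST 2.17.0.

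Expected counts were rounded and scaled by TMM (edgeR 4.0.16 in R 4.3.3) after filterByExpr, which kept 14304 genes and all 47. Ratios used a prior count of 2. Between libraries an exact two-sided binomial test (scipy 1.17.1) with Benjamini-Hochberg adjustment was called at 0.05 and a log2 ratio of 1, and was tested on simulated data. Conditions could not be tested. The test takes reads as independent, which PCR copies are not. Median SD is that of the 2 library medians. The median it follows is that of the gene means, which need not lie between the library medians.

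All 47 genes could be named; most detail went to the highest and lowest of each role, the 5 largest ratios, any called gene and genes whose leading model was non-coding or under 50%. Of the wider pathway the 3 highest, 3 lowest and any called were named, and of snoRNA genes the 5 with most reads. The genes, lists and rules were chosen with earlier results of these data known. Alternatives were posterior mean TPM, FPKM, each library alone, DESeq2 1.42.0 size factors, the protein-coding total, other priors and filters, and, chosen after seeing the data, coding models alone.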

Additional observations from a re-analysis of the deposited data

How the results depend on the processing

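No paired analysis was possible because the labels give 1 group and no second group to pair with. The median of the 47 genes, 25.4 TPM, was 25.3 TPM with posterior means or without Npm1, 25.34 to 26.98 TPM with either library left out, and 20.9 TPM with coding models alone. As FPKM rescaled to the protein-coding sum it was 51.6, a different unit that leaves out non-coding RNA. The role medians lay, with either library left out, at 65.3 to 69.5 TPM for chaperones and organisers, 81.7 to 84.8 for the box C/D core, 13.2 to 14.3 for RNA polymerase I, 21.5 to 23.9 for the SSU processome, 16.6 to 18.2 for late 40S factors and 25.3 to 25.5 for 60S factors. With posterior means the 60S median was 25.0 TPM and the wider pathway's 20.5 TPM, which was 20.3 and 20.5 TPM in each library alone. The count at 10 TPM or more was 42 of 47 with posterior means and with either library left out, and 40 with coding models alone. Coding models alone, an alternative chosen after seeing the data, gave medians of 46.2 TPM for chaperones and organisers, 66.7 for the box C/D core, 13.2 for RNA polymerase I, 15.9 for the SSU processome, 8.87 for late 40S factors and 19.9 for 60S factors, and moved Ncl from 314.5 to 45.5 TPM.

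The count of called genes was 0 of 47 with DESeq2 size factors, the protein-coding total, no filter and reads divided by 4, against 7.66%, 7.67%, 17.2% and 3.64% of genes tested. It was 33 with no minimum ratio and 22 by credibility intervals, against 59.0% and 43.5%. The median log2 ratio ran from −0.05 as a difference of log2(TPM + 1) and −0.04 with the protein-coding total to 0.01 with other priors. The protein-coding total changed the sign for 6 genes, the largest of them 0.04 in size, and log2(TPM + 1) for 10, the largest of them 0.13. The wider motif CANNTG was in 25 promoters against 11 for CACGTG. Posterior means moved single-gene TPM by −1.69% to 3.43%, which was more than 1 SD for 8 of 47 genes. With 2 libraries, the TPM of a single gene in either alone always lies within 1 SD of its mean and shows nothing of stability. Medians over lists are not bound in this way. With replicate 2 left out, 3 of them moved by more than 1 SD. These were the medians of the 47 genes (26.98 TPM), of chaperones and organisers (69.5 TPM) and of the wider pathway (20.3 TPM). The fewest reads behind a gene were 514.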
